A study of Mus musculus with 8 samples.

Results

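Of the 286181 merged regions that carried a peak of open chromatin on chromosomes 1 to 19 in any of 8 single-nucleus ATAC-seq libraries of the mouse embryonic forebrain, 8947 carried a peak in both cortical (CTX) libraries and in no library of the ganglionic eminences (GE). These CTX-only regions were found by joining the peaks of all libraries where they overlapped or touched, and then keeping every region that held a peak of CTX replicate 1, a peak of CTX replicate 2, and none from the medial (MGE), lateral (LGE) or caudal (CGE) eminence. They made up 3.13% of all merged regions and 8.14% of the 109932 regions with a peak in both CTX libraries. Because the rule used peak calls of CTX against GE, the absence of GE peaks is not a finding, and no test of that contrast is given. All 8 libraries came from brain of wild-type (WT) mice, 2 per region. The labels gave embryonic day E12.5 for CTX replicate 1 and for all 6 GE libraries, and E14.5 for CTX replicate 2, so that age, library and replicate number could not be told apart within CTX. Strain, number of embryos per library and sex were not given.

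ATAC-seq cuts DNA where it is not covered by nucleosomes, and the cuts cluster at promoters and at enhancers, the distal elements bound by transcription factors. Promoters tend to be open in many tissues, whereas enhancers are often open in the cell types in which they act. In the dorsal telencephalon, radial glia line the ventricle and give rise, directly or through intermediate progenitors, to glutamatergic neurons, while the eminences produce GABAergic neurons. Homeodomain and SOX factors act in radial glia, the proneural basic helix-loop-helix (bHLH) factors of the NEUROG and NEUROD families drive glutamatergic neurogenesis, and nuclear factor I (NFI) proteins act in both cortical progenitors and neurons.

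Sequences of 8 CTX-only regions are shown because they stand for the groups described below. Each is the central 300 bp window of a region, read from the plus strand of GRCm38, with the nearest protein-coding gene as its name. Capitals mark the NFI core (TTGGCA), the E-boxes CAGATG and CATATG bound by proneural bHLH factors, the homeodomain core TAATTA and the SOX core ACAATG, on either strand. The first belongs to the region with the largest value reached in both CTX libraries, and the next pair are the windows most skewed to progenitor-like and to glutamatergic neuron-like nuclei. The Emx1, Neurod1 and Foxp1 windows stand for pallial patterning, bHLH and cortical layer genes, and belong to the regions of these lists with high counts in both libraries. The final pair, from the Nfib locus, were chosen after their values were seen, for their number of NFI cores.
Edem1 (chr6:108970550-108970849): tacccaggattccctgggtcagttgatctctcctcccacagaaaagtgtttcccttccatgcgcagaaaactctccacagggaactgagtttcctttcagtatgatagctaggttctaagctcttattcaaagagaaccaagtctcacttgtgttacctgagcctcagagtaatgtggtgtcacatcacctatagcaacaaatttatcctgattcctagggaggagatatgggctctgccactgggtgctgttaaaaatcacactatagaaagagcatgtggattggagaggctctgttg
Sis (chr3:72713834-72714133): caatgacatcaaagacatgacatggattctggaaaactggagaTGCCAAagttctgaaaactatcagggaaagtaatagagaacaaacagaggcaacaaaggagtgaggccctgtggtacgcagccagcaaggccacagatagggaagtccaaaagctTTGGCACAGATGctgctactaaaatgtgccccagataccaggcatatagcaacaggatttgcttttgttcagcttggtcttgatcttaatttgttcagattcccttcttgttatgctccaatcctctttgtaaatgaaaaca
Styk1 (chr6:131315731-131316030): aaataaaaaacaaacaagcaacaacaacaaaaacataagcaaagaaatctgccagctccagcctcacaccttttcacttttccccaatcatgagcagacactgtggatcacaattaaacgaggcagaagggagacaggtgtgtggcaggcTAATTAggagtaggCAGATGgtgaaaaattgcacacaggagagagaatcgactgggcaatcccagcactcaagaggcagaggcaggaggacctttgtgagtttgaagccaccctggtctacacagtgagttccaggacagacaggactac
Emx1 (chr6:85198450-85198749): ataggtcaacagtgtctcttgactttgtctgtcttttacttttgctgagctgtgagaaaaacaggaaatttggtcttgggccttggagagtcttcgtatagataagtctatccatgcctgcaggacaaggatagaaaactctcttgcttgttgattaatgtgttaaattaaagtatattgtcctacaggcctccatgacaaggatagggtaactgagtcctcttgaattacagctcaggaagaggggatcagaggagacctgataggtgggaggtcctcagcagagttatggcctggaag
Neurod1 (chr2:79462044-79462343): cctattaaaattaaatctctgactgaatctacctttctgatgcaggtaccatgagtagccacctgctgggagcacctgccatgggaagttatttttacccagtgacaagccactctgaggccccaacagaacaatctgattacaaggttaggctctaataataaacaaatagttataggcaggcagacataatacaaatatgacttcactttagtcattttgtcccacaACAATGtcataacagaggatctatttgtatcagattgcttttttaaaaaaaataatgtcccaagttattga
Foxp1 (chr6:99289553-99289852): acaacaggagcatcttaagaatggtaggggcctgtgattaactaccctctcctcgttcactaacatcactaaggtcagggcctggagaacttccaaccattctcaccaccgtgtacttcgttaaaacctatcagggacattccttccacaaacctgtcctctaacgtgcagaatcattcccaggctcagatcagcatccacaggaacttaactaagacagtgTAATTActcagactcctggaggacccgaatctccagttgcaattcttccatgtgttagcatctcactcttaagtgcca
Nfib (chr4:82626180-82626479): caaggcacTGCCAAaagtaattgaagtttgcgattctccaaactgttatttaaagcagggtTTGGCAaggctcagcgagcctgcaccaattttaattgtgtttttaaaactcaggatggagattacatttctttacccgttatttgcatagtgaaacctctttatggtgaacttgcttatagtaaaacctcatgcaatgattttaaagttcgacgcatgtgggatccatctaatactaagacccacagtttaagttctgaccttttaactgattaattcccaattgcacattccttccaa
Nfib (chr4:82268333-82268632): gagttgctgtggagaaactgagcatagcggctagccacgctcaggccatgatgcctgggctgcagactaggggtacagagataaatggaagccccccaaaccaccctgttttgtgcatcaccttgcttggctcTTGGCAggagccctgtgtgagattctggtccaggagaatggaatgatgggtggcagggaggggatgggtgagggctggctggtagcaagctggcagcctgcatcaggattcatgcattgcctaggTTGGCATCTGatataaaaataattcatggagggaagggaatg
The Sis window held 2 NFI cores and 1 CAGATG E-box, the Styk1 window 1 CAGATG E-box and 1 homeodomain core, and both Nfib windows 2 NFI cores each. In the Nfib window at chr4:82268333-82268632, 1 NFI core overlapped a CAGATG E-box on the other strand. The Neurod1 window held 1 SOX core and the Foxp1 window 1 homeodomain core. The Edem1 and Emx1 windows held none of these 5 strings, which says nothing about the factors themselves.

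Each library was called separately and gave between 103633 and 182638 peaks. The CTX libraries held 4108 nuclei with 138873845 counts in replicate 1 and 4946 nuclei with 90206914 counts in replicate 2, and the median nucleus had 22209.5 and 15715.5 counts. Totals in the GE libraries ran from 77387940 to 138789944 counts. Deposited counts exist only within a library's own peaks, so a CTX-only region had no count in any GE library, and a missing peak does not show closed chromatin.

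The CTX libraries differed in the nuclei that they held, and this bears on every value below. When their 9054 nuclei were clustered on regions open in all 8 libraries, with the CTX-only regions left out, most clusters came from a single library. Clusters were named from marker genes, by counts in and just upstream of each gene. Glutamatergic neuron-like nuclei, with 7 of 11 markers raised and Neurod2 among the leading genes, numbered 2710 in replicate 1 and 1 in replicate 2. Progenitor-like nuclei, with 6 of 10 markers raised, numbered 1072 and 2. Cajal-Retzius-like nuclei, an early-born neuron type of the marginal zone, numbered 43 and 681. Nuclei resembling the cortical hem or choroid plexus, the medial edge of the pallium that secretes Wnt proteins, numbered 2 and 626, and endothelial-like nuclei 26 and 285. The largest cluster of replicate 2, called cluster 0 here, had 3269 nuclei there and 25 in replicate 1. It had 4 of 10 progenitor markers raised but stayed unnamed, because none of these stood among its leading genes while Sp8 did, a gene on the GABAergic marker list that is also a pallial patterning regulator. Its name turned on this and on the clustering. When the 5% of nuclei with the most counts in each library were left out, a cluster of 3012 nuclei of replicate 2 was named progenitor-like. At a finer resolution (Leiden resolution 1.0 in place of 0.5) cluster 0 divided, and 1225 of its nuclei of replicate 2 were named progenitor-like and 980 cortical hem or choroid plexus-like. Cluster 6, with 221 nuclei of replicate 1 and 0 of replicate 2, had 7 of 10 GABAergic markers raised, with the GABAergic gene Slc32a1 among its leading genes, but stayed unnamed because the microglial gene C1qa was among them too. With replicate 1 clustered alone, 217 nuclei were named GABAergic-like with 8 of 10 markers raised. Other names depended on the clustering too. At the finer resolution 814 nuclei of replicate 1 formed an intermediate progenitor-like cluster, 797 of them from the glutamatergic neuron-like class used in the comparisons below. Another 153 nuclei of that class, with a median of 138344 counts and 25.2% of its counts, joined an unnamed cluster. With these and smaller moves the class held 1734 nuclei of replicate 1 at that resolution. Most endothelial-like nuclei of replicate 2 formed a mural or mesenchymal-like cluster (231 nuclei). With replicate 2 clustered alone, 714 nuclei stayed unnamed with 6 of 11 glutamatergic neuron markers raised, and no cluster was named Cajal-Retzius-like. The near absence of progenitor-like nuclei in replicate 2 and the Cajal-Retzius name, on which comparisons within replicate 2 rest below, thus depend on the clustering, whereas glutamatergic neuron-like nuclei of replicate 2 numbered 1 to 4 in every joint clustering tried. Only 36 barcodes were shared between the libraries. The library labelled E12.5 thus held the neuron-rich composition, whereas cortical neurons accumulate with embryonic age. The libraries are therefore named by replicate number, and no difference between them is read as a difference of age.

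Few CTX-only regions were promoters. A total of 175 of them (1.96%, exact 95% binomial interval 1.68 to 2.26%) lay within 1000 bp of a protein-coding start site, against 22.2% of the 66854 regions shared by all 8 libraries and 6.61% of all merged regions. Among the regions, 4506 (50.4%) were intergenic, 3698 (41.3%) intronic, 452 (5.05%) overlapped coding exons and 116 (1.30%) untranslated exons. The median distance to the nearest start site was 50817 bp (interquartile range 16595 to 155948 bp), against 41269 bp for all merged regions and 20424 bp for shared regions. Beyond 100 kb lay 3091 regions (34.5%), against 30.4% of all merged regions. The promoter share was close to that of the eminence-only sets, of which 2.01% (MGE-only, 1741 regions) and 1.45% (CGE-only, 2889 regions) were promoters. Distances were less alike, with medians of 37381 bp (MGE-only) and 64097 bp (CGE-only), and 27.9% and 40.1% beyond 100 kb. Intergenic were 44.5% of MGE-only and 48.7% of CGE-only regions. Only 66 regions were LGE-only. Because the number of peaks differed between libraries, the sizes of these sets are not comparable measures of regional specificity.

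**Figure D1:**
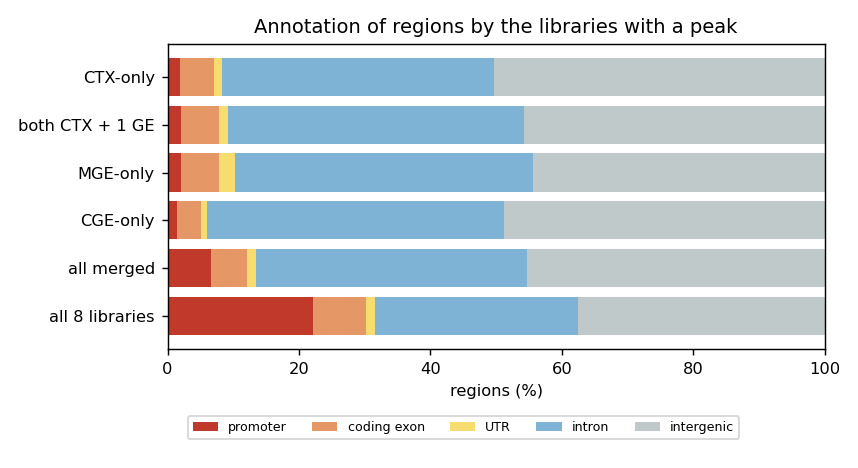
Percentage of regions in each annotation class (x axis, %) for sets defined by the libraries with a peak (y axis), counted in the order promoter, coding exon, UTR, intron, intergenic. Promoters form 1.96% of CTX-only regions and 22.2% of regions shared by all 8 libraries.

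CTX-only regions had a median merged width of 628 bp (interquartile range 451 to 924 bp, extremes 11 and 6414 bp). This was above the median of all merged regions (564 bp), of MGE-only (561 bp) and of CGE-only regions (421 bp), and below that of regions shared by all 8 libraries (1536 bp). The peaks of the CTX libraries overlapped within them by a median of 314 bp, and in 97.1% of regions by at least 50% of the shorter covered length. In 1 region they merely touched. The nearest GE peak lay at a median of 2944 bp, but 1561 regions (17.4%) had one within 1000 bp and 53 within 100 bp. Just outside the rule, 5113 regions had peaks in both CTX libraries and in exactly 1 GE library. These had a median width of 680 bp, 2.09% promoters and medians of 0.0389 and 0.0154 counts per nucleus in replicates 1 and 2, close to the values of the CTX-only regions.

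Accessibility was low and unequal between the libraries. The median CTX-only region had 0.0402 counts per nucleus in replicate 1 (interquartile range 0.0197 to 0.0882) and 0.0137 in replicate 2 (0.00829 to 0.0255), which came to 165 and 68 counts in all. A count was found in a median of 2.12% and 0.768% of nuclei. Regions shared by all 8 libraries had medians of 0.178 and 0.0863 counts per nucleus. Together the CTX-only regions held 2.03% of all counts of replicate 1 and 1.15% of those of replicate 2. By class the share was 2.12% in glutamatergic neuron-like and 1.87% in progenitor-like nuclei of replicate 1, and 1.43% in cluster 6. In replicate 2 it was 1.08% in cluster 0, 1.21% in Cajal-Retzius-like, 1.42% in cortical hem or choroid plexus-like and 1.45% in endothelial-like nuclei, so that every class of more than 200 nuclei had counts in them. Although a peak had been called, 61 regions had no count in any retained nucleus of replicate 1 and 114 in none of replicate 2. At least 100 counts were present in both libraries in 2167 regions, and fewer than 100 in both in 2054.

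**Figure D2:**
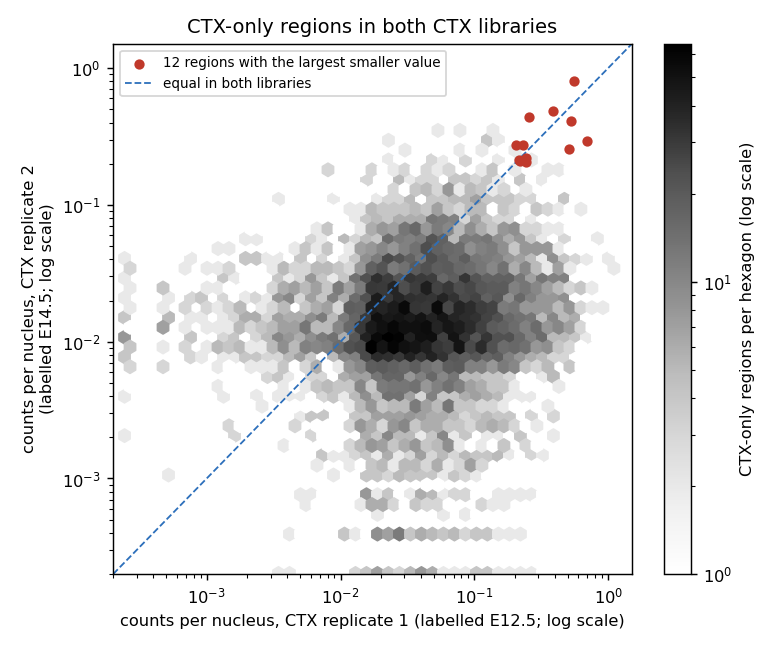
Counts per nucleus of each CTX-only region in CTX replicate 1 (x axis) and CTX replicate 2 (y axis), both on log scales, with hexagons shaded by the number of regions; regions without a count in at least 1 library are not drawn. Most regions lie below the dashed line of equal values, and the 12 red points all exceed 0.2 counts per nucleus in both libraries.

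Counts scaled to the total of a library or cell class (CPM) are used from here on, with counts under 3 set to 3 in each ratio. The CPM was at least 2-fold higher in replicate 1 for 3873 CTX-only regions (43.3%), against 23.3% of all regions with a peak in both CTX libraries. It was at least 2-fold higher in replicate 2 for 1886 (21.1%), against 18.4%. The median log2 ratio of replicate 1 over replicate 2 was 0.64 (interquartile range -0.73 to 2.10), while it was -0.02 over all regions with both CTX peaks and 0.41 in the regions with a single GE peak. Per covered kilobase the median fell to 0.17, as the peaks of replicate 1 were wider (median 520 against 401 bp). They were also wider over all regions with both CTX peaks (883 against 728 bp). No ratio per covered kilobase was computed for those, so the 0.17 has no background to be read against. With 1 library on each side no error can be set on these ratios, and the cell composition of the libraries moved with them; its part was not tested.

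The 12 regions with the largest values reached in both libraries were distal. They lay between 43963 and 1532844 bp from the nearest start site, except that of Pde4b (6443 bp). The leading region, 3899 bp wide on chr6:108968751-108972649, lay 140077 bp from Edem1, which encodes a protein of endoplasmic reticulum quality control. It had 2282 counts in replicate 1, or 0.556 per nucleus (exact 95% Poisson interval 0.533 to 0.579), and 3965 in replicate 2, or 0.802 per nucleus (0.777 to 0.827). Next came an intergenic region 633458 bp from the chromatin remodeller gene Arid1b (chr17:4359985-4361481), with 0.527 and 0.409 counts per nucleus. A region 495946 bp from Cntn6, a neuronal contactin, followed with 0.390 and 0.486. An intronic region of Pde4b, a cyclic AMP phosphodiesterase, reached 0.692 and 0.294. These intervals cover counting error only, and both ends of a fragment were counted, so that they are too narrow.

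Among the other 8 of the 12, regions next to Tenm4, Gja1, Ncald, Slitrk5, Flrt3, Tshz2, Aldh1a1 and Adra1a ranged from 0.204 to 0.512 counts per nucleus in replicate 1 and from 0.207 to 0.439 in replicate 2. Tenm4 encodes a teneurin adhesion protein, Gja1 the gap junction protein connexin 43 of radial glia, Slitrk5 and Flrt3 transmembrane proteins of neuronal adhesion, and Aldh1a1 an enzyme that makes retinoic acid. The region assigned to Tenm4 lay 1532844 bp away from its start, so that nearest genes are labels of position, not of regulation. Within replicate 1, progenitor-like nuclei had the higher CPM in 11 of the 12 regions, with Ncald the exception (ratio of glutamatergic neuron-like over progenitor-like 1.29, exact 95% interval 1.10 to 1.52). In the Adra1a region the interval of the ratio, 0.737 to 1.01, included 1. In the Arid1b region the progenitor-like nuclei had 40.0 CPM and the glutamatergic neuron-like nuclei 7.52 CPM. In replicate 2 cluster 0 exceeded the Cajal-Retzius-like nuclei in all 12, by 52.4 against 23.4 CPM in the Edem1 region. The cortical hem or choroid plexus-like nuclei were above cluster 0 in the Gja1 (ratio 3.32, exact 95% interval 2.93 to 3.77) and Tshz2 regions (2.17, 1.86 to 2.52) and below it in the other 10. These regions were picked for their counts in both libraries, and cluster 0 gave most counts of replicate 2. Of the CTX-only regions with at least 100 counts in each CTX library, progenitor-like nuclei had the higher CPM in 57.7%, against 50.4% of all such regions with both CTX peaks, and cluster 0 the higher CPM in 59.9%, against 51%.

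Splits between cell classes were frequent. In replicate 1, 2490 CTX-only regions (27.8%) had a CPM at least 2-fold higher in glutamatergic neuron-like than in progenitor-like nuclei, against 16.6% of all regions with both CTX peaks. A further 1800 (20.1%) were at least 2-fold higher in progenitor-like nuclei, against 14.1%. A call required more than 3 counts in the higher class. Low counts widen such ratios, and CTX-only regions had fewer counts than the rest. Among regions with at least 100 counts in each CTX library the shares were 18.8% against 11.9% of all such regions towards glutamatergic neuron-like nuclei, and 27.7% against 14.2% towards progenitor-like nuclei. Which direction was the more frequent thus depended on this limit. With and without the limit, the share was above that of all regions with both CTX peaks in both directions. The limit sets a minimum and does not match counts between the sets. It was passed by 2167 of 8947 CTX-only regions, against 73734 of 109932 regions with both CTX peaks. The limit also applied to replicate 2, which held 1 glutamatergic neuron-like and 2 progenitor-like nuclei in the clustering used. At least 100 counts were reached by 2980 CTX-only regions in replicate 2 and by 6080 in replicate 1. The parts of depth and of the cell composition of replicate 2 in these shares were not tested.

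In replicate 2 the comparison was made with cluster 0, since glutamatergic neuron-like and progenitor-like nuclei were nearly absent there in the clustering used. Cajal-Retzius-like nuclei had at least 2-fold more CPM than cluster 0 in 2433 CTX-only regions (27.2%, against 20.2% of regions with both CTX peaks) and at least 2-fold less in 1643 (18.4%, against 13.4%). The cortical hem or choroid plexus-like nuclei were at least 2-fold above cluster 0 in 2363 regions (26.4%, against 16.4%) and below it in 1355 (15.1%, against 14.1%). Among regions with at least 100 counts in each CTX library the Cajal-Retzius-like shares were 19.2% above (against 16.1%) and 31.5% below cluster 0 (against 13.4%). The more frequent direction thus turned with this limit, as in replicate 1. Cluster 0 gave most counts of replicate 2, so the limit also selects regions with counts in cluster 0, and the part of depth was not tested. The hem or choroid plexus-like shares were 27.1% above (against 13.4%) and 27.5% below (against 15%). Endothelial-like nuclei were at least 2-fold above cluster 0 in 1842 regions (20.6%, against 19%) and below it in 1427 (15.9%, against 21.3%). Only 3336 CTX-only regions had more than 3 counts in both of the latter classes.

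Calls of both libraries were also set side by side. Of the CTX-only regions, 1368 were at least 2-fold higher both in the glutamatergic neuron-like nuclei of replicate 1 and in the Cajal-Retzius-like nuclei of replicate 2 (15.3%, against 10.3% of regions with both CTX peaks), and 793 were at least 2-fold lower in both (8.86%, against 6.68%). Opposite calls were made in 99 regions higher in glutamatergic neuron-like and lower in Cajal-Retzius-like nuclei (1.11%, against 0.469%) and in 67 the other way (0.749%, against 0.355%). No 2-fold call in either library was made in 2908 regions (32.5%, against 53.5%). All 4 kinds of double call, the opposite ones included, were above their background share. However, CTX-only regions had fewer counts than the background, with medians of 165 and 68 in replicates 1 and 2 against 423 and 222. Low counts widen ratios in every direction. These double calls were not limited to regions with more counts, and the part of depth was not tested.

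**Figure D3:**
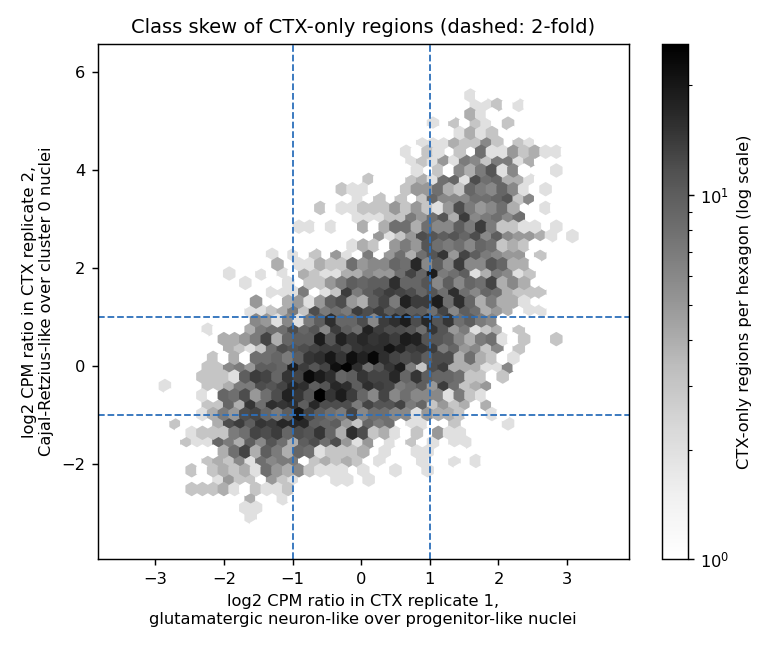
Log2 ratio of CPM in glutamatergic neuron-like over progenitor-like nuclei of CTX replicate 1 (x axis) and in Cajal-Retzius-like over cluster 0 nuclei of CTX replicate 2 (y axis), for the 5953 CTX-only regions with more than 3 counts in all 4 classes, hexagons shaded by the number of regions on a log scale. Dashed lines mark 2-fold, and regions extend from the lower left to the upper right.

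The most skewed regions with at least 100 counts in each library ranged from 473 to 1206 bp in width, with 1 promoter among them. Towards progenitor-like nuclei the leading region lay 252473 bp from Sis, an intestinal disaccharidase gene, with 90 counts in progenitor-like (2.64 CPM) and 32 in glutamatergic neuron-like nuclei (0.335 CPM) of replicate 1, a ratio of 0.127 (exact 95% interval 0.0820 to 0.192). The following 5 lay nearest to Kat5, Nme9, Irak1bp1, Olfr31 and Meis1, with ratios between 0.129 and 0.144. All 6 also had a lower CPM in Cajal-Retzius-like nuclei than in cluster 0 of replicate 2. Meis1 encodes a homeodomain factor, and the window of its region, as those of Sis, Irak1bp1 and Olfr31, held an NFI core. Those of Kat5 and Nme9 did not, and the share over all progenitor-skewed regions is given below.

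Towards glutamatergic neuron-like nuclei the leading region covered the promoter of Styk1, a kinase-like gene (chr6:131315645-131316117), with 100 counts in glutamatergic neuron-like nuclei (1.05 CPM) and 3 in progenitor-like nuclei (0.0881 CPM), a ratio of 11.9 (exact 95% interval 3.95 to 58.6). The regions nearest to Chordc1, Sptbn1, 4931408C20Rik and Gm16223 had ratios between 7.81 and 8.56. Of these 5 regions, all but the Chordc1 region held the CAGATG E-box in the central window. The share over all glutamatergic-skewed regions is given below, and so few regions cannot be told apart from it. In each of them the CPM was also higher in Cajal-Retzius-like nuclei than in cluster 0, with 72 against 23 counts in the Gm16223 region although cluster 0 held more nuclei. In a pair of them, however, endothelial-like nuclei were far higher still. The Chordc1 region had 127 of its 157 counts of replicate 2 in endothelial-like nuclei (28.5 CPM), a ratio over cluster 0 of 131 (exact 95% interval 75.4 to 247) against 6.66 for Cajal-Retzius-like nuclei. The Sptbn1 region had endothelial-like and Cajal-Retzius-like ratios of 20.6 and 4.30.

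Of the 16 strings searched, the NFI core differed most in share between CTX-only windows and all merged regions. TTGGCA, on either strand, was present in 3445 of 8946 central windows (38.5%), against 21.7% of all merged regions, 16.2% of regions shared by all 8 libraries, 15.8% of MGE-only and 13.8% of CGE-only regions. Regions with peaks in both CTX libraries and in some but not all GE libraries held it in 24.1%. Median GC content was 46.3% in CTX-only windows, 46.7% over all merged regions, 47.0% in MGE-only, 43.7% in CGE-only and 49.7% in shared windows, and its part in the NFI share was not tested. The RFX core GTTGCCA, which shares TGGCA with the NFI core so that a single stretch can hold both, was found in 6.36% against 4.77% of all merged regions. The homeodomain core was present in 18.0% against 13.9%, but regions shared with some GE libraries reached the same 18.0%.

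Other strings were near or below the share of all merged regions. The CAGATG E-box occurred in 29.8% of CTX-only windows and 27.9% of all merged regions, CATATG in 8.41% and 7.99%, the T-box core AGGTGT in 14.8% and 13.6%, and the SOX core in 16.8% and 17.2%. The MEIS or TGIF core TGACAG was found in 22.3% against 26.3%, and in 39.2% of CGE-only windows. The ASCL-type E-box CAGCTG, bound by the proneural factor of ventral progenitors, occurred in 19.7% of CTX-only windows, 21.5% of all merged regions, 21.7% of CGE-only and 28.9% of MGE-only windows. The POU octamer ATGCAAAT (2.14% against 3.15%), the CTCF core AGGGGGC (3.47% against 5.18%), the ETS core CCGGAAG (1.22% against 1.79%) and the nuclear receptor core AGGTCA (11.4% against 14.4%) were all less frequent than over all merged regions. The AP-1 core TGANTCA (10.9% against 9.83%) and the GATA core AGATAA (15.6% against 15.4%) were near that share, and the NRF1 core TGCGCATGC was found in 13 windows.

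The NFI core was frequent on both sides of the class split, whereas E-boxes and homeodomain cores were not. Among CTX-only regions at least 2-fold higher in glutamatergic neuron-like nuclei, 37.3% held the NFI core, and among those higher in progenitor-like nuclei 42.6%. In the regions with both CTX peaks and a GE peak it was found in 3477 of 15770 and 3219 of 13719 windows (23.5% for the latter). The CAGATG E-box was in 46.3% of glutamatergic-skewed and 16.1% of progenitor-skewed CTX-only windows, and CATATG in 15.7% and 3.72%. The homeodomain core went the other way, with 362 of 2490 and 432 of 1799 windows (24.0% for the latter), as did the SOX core, with 368 and 396 of the same windows. Regions with a GE peak showed contrasts in the same directions, with CAGATG in 39.1% and 17.6%, the homeodomain core in 14.8% and 17.8%, and the SOX core in 2402 of 15770 and 3020 of 13719.

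In replicate 2 the same strings followed the Cajal-Retzius-like split. CAGATG was present in 45.7% of regions higher in Cajal-Retzius-like nuclei and 15.9% of those higher in cluster 0, the homeodomain core in 13.2% and 29.3%, and the NFI core in 40.4% and 36.6%. Regions with a GE peak again showed E-box and homeodomain contrasts in the same directions, with CAGATG in 38.5% and 17.9%, the homeodomain core in 14.8% and 19.0%, and the NFI core in 23.3% of the former and 2733 of 13035 of the latter. Between the libraries, however, the NFI core was unequal. It occurred in 42.4% of CTX-only regions at least 2-fold higher in replicate 1 and 30.9% of those higher in replicate 2. Of the regions with a peak in replicate 1 and no other library (42256), 42.1% held it, and of those with a peak in replicate 2 and no other library (22535), 20.2%. A share above that of all merged regions was thus found in regions of replicate 1 alone and not in regions of replicate 2 alone, and the part of the library or of its cell composition in this share was not tested.

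**Figure D4:**
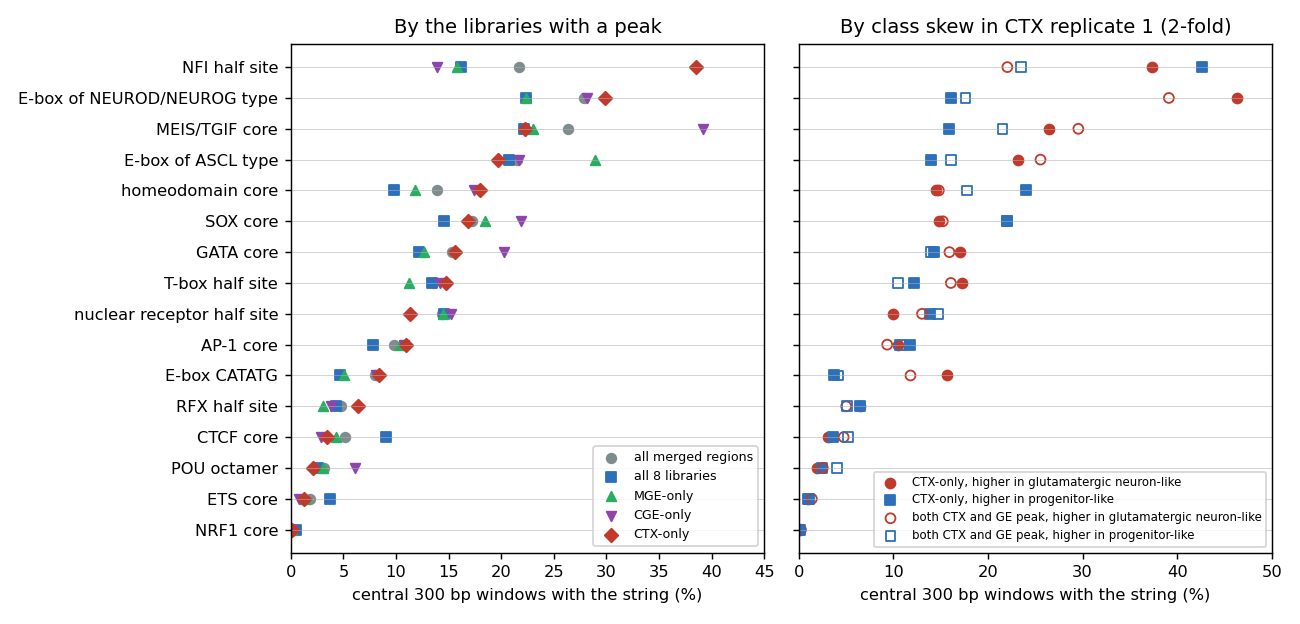
Percentage of central 300 bp windows (x axes) that hold each string on either strand (y axis). Left, regions by the libraries with a peak; right, CTX-only regions (filled) and regions with both CTX peaks and at least 1 GE peak (open), at least 2-fold higher in glutamatergic neuron-like (circles) or progenitor-like nuclei (squares) of CTX replicate 1; the NFI core, in the top row, stands at 38.5% in CTX-only windows and at 13.8 to 21.7% in the other sets on the left.

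CTX-only regions were scattered over the genome. Their share of merged regions ran from 2.84% on chromosome 17 to 3.47% on chromosome 16. Joining regions at most 50 kb apart gave 6780 runs, 5279 of them a single region, and 1474 regions lay in runs of 3 or more. The longest run by number lay at Nfib, which encodes an NFI transcription factor, with 15 regions over 283 kb (chr4:82267808-82550892). Other runs included 12 regions near Cdon, a co-receptor of Sonic hedgehog (chr9:35325396-35505722), 9 regions at Dach1 and 9 at Tiam2.

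At least 1 CTX-only region was nearest to 4705 of 20698 autosomal protein-coding genes (22.7%), and 321 genes had 5 or more. The 12 genes with the most were Tenm4 (23), Nfib (20), Tenm3 (20), Dab1 (17), Ptprd (17), Tcf4 (17), Cntnap2 (15), Dach1 (15), Adgrl2 (14), Alcam (13), Pcdh9 (13) and Tenm2 (13). Their gene bodies span 175 to 2271 kb, and they have many regions of any kind. As a share of all merged regions nearest to the gene, which averaged 3.13% over the genome, Nfib reached 14.2% (20 of 141), Tcf4 10.3% (17 of 165), Dach1 9.55% (15 of 157) and Alcam 9.42% (13 of 138), while Adgrl2 reached 3.57%. Tcf4 encodes the E protein that pairs with proneural bHLH factors, Dach1 a transcriptional cofactor, Dab1 the adaptor of the Reelin receptors, and Alcam a cell adhesion molecule. Teneurins (Tenm), the receptor phosphatase Ptprd, the neurexin-like Cntnap2, the latrophilin Adgrl2 and the protocadherin Pcdh9 act in neuronal contact.

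At Nfib the regions spread through the gene body and beyond its 3' end. Of the 20 regions, 13 were intronic and 5 intergenic. Counts per nucleus ran from 0.00195 to 0.553 with a median of 0.0768 in replicate 1, and from 0.000809 to 0.0667 with a median of 0.0104 in replicate 2. Summed over the 20 regions, replicate 1 had 2.73 and replicate 2 0.328 counts per nucleus. At least 2-fold more CPM in replicate 1 was found in 15 of the 20, against 43.3% of all CTX-only regions and 23.3% of all regions with both CTX peaks. The strongest, 6414 bp wide (chr4:82282523-82288936), had 2270 counts in replicate 1 and 330 in replicate 2. In replicate 1 its CPM was 18.2 in glutamatergic neuron-like and 11.3 in progenitor-like nuclei (ratio 1.61, exact 95% interval 1.44 to 1.81). Of the 20 regions, 4 were at least 2-fold higher in glutamatergic neuron-like and 2 in progenitor-like nuclei, and 6 held an NFI core in the central window, none of these counts above the shares over all CTX-only regions (27.8%, 20.1% and 38.5%). The merged region over the Nfib promoter, with a peak in every library, reached 262 CPM in replicate 1 and 285 in replicate 2, while the GE libraries ranged from 131 to 152. Of the 22 promoters of the T-box and cortical layer list, 3 (Nfib, Bcl11a and Eomes) were above all GE libraries in both CTX libraries, against 8.02% of all shared regions. A further 6 (Bcl11b, Cux1, Cux2, Pou3f2, Pou3f3 and Rorb) were below all GE libraries, near the 22.3% of all shared regions, and 13 overlapped.

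**Figure D5:**
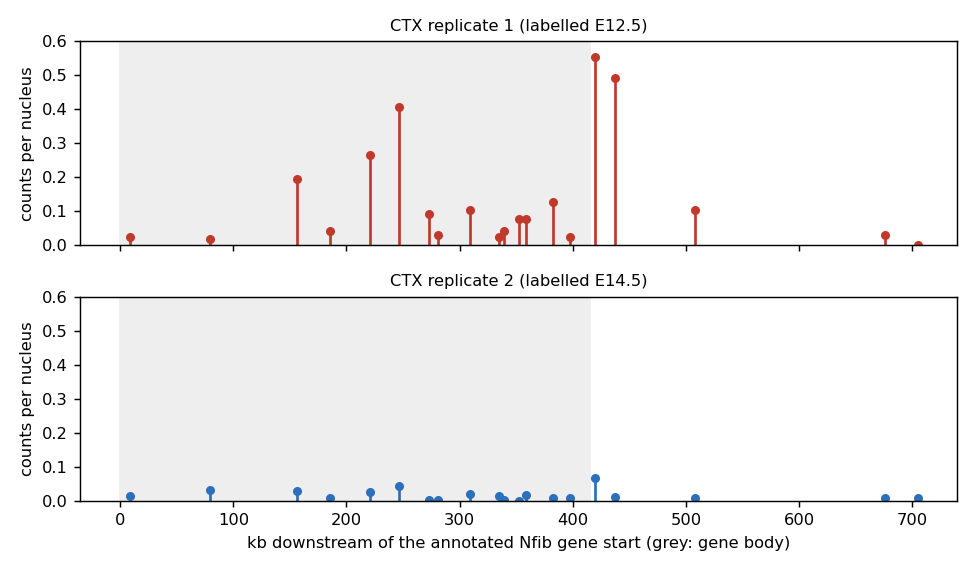
Counts per nucleus (y axes) of the 20 CTX-only regions nearest to Nfib against their distance downstream of the annotated gene start (x axis, kb), in CTX replicate 1 (top) and CTX replicate 2 (bottom) on the same scale, with the gene body in grey. Values reach 0.553 in replicate 1 and 0.0667 in replicate 2.

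Genes of the T-box and cortical layer list were often neighbours, with at least 1 CTX-only region at 20 of 22, against 22.7% of all genes. They also had more merged regions of any kind, 97.0 per gene against 13.8 over all genes, and 10 of the 22 had an MGE-only region, against 7.01% of all genes. In all 98 of the 2133 merged regions nearest to them (4.59%) were CTX-only, against 3.13% over the genome. Nfib alone gave 20 of the 98, and the median share per gene of the list was 3.36%. Besides Nfib the list was led by Bcl11a (10), Foxp1 (10), Lmo4 (8) and Nfia (8). Bcl11a and Foxp1 are transcription factors of projection neurons, Lmo4 a LIM-only cofactor and Nfia another NFI factor. All 8 Nfia regions were intronic, with 0.480 and 0.124 counts per nucleus in sum in replicates 1 and 2. The Foxp1 region shown above had 320 counts in replicate 1 and 433 in replicate 2, with glutamatergic neuron-like and progenitor-like nuclei at 2.28 and 2.41 CPM (ratio 0.948, exact 95% interval 0.732 to 1.24), an interval that includes 1. It was not typical of the 10 Foxp1 regions. Of these, 9 were at least 2-fold higher in replicate 1 and 1 in replicate 2 (43.3% and 21.1% of all CTX-only regions were). By class, 4 were at least 2-fold higher in glutamatergic neuron-like and 0 in progenitor-like nuclei (27.8% and 20.1%). Tbr1, a marker of early glutamatergic neurons, had a single region 30813 bp away with 1022 and 128 counts and 2 NFI cores. Its log2 ratio of glutamatergic neuron-like over progenitor-like nuclei was -1.48, towards progenitor-like nuclei. Eomes, the T-box gene of intermediate progenitors, had 1 with 63 and 62 counts.

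Among glutamatergic lineage bHLH genes, 4 of 9 had a CTX-only region, 1 each (22.7% of all genes had one), out of 113 regions nearest to the list (3.54%, near the 3.13% over the genome). The Neurod1 region (chr2:79461613-79462775), 4862 bp from the start, had 565 counts in replicate 1 and 352 in replicate 2, and in replicate 1 a ratio of glutamatergic neuron-like over progenitor-like nuclei of 1.94 (exact 95% interval 1.53 to 2.49). The Neurog2 region, 10031 bp from its start, had 126 and 115 counts and a ratio of 0.550 (0.377 to 0.808). The Nhlh2 region had 105 and 38 counts, 51 of the former in glutamatergic neuron-like and 2 in progenitor-like nuclei (ratio of the counts as they stand, with the 2 not set to 3, 9.10, 2.39 to 77.1). The Neurod6 region had 125 and 25 counts. The shared promoter of Neurod6 had 101 and 36.3 CPM in CTX and 10.6 to 27.6 in GE, and that of Neurog2 87.3 and 130 against 42.8 to 65.5. Of the 9 promoters of this list, 3 (with Bhlhe22) were above all GE libraries in both CTX libraries, against 8.02% of all shared regions. The other 6 overlapped with the GE libraries.

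Pallial patterning regulators had CTX-only regions at 9 of 15 genes, against 22.7% of all genes, and had 52.5 merged regions per gene against 13.8 over all genes. Of the regions nearest to them 20 of 788 were CTX-only (2.54%), a share below the 3.13% of the genome. Gli3, a repressor of ventral fate, had 5, Nr2f1 4, Nr2f2 3, and Dmrt3 and Pax6 2 each. The Emx1 region (chr6:85196943-85200257), in an intron of this dorsal homeobox gene, had 919 counts in replicate 1 and 512 in replicate 2 and a ratio of 1.76 (exact 95% interval 1.48 to 2.12) towards glutamatergic neuron-like nuclei. The Gli3 regions were unlike each other. An intronic region 60058 bp from the start had 699 and 25 counts, and another 214554 bp away 51 and 70. Of the 15 promoters of this list, 5 (Emx1, Lhx2, Dmrta2, Dmrt3 and Fezf2) had more CPM in both CTX libraries than in any GE library, against 8.02% of all shared regions. The promoter of Fezf1 had less than in any, against 22.3% of all shared regions, and the others overlapped. That of Emx1 had 85.2 and 111 against 31.2 to 53.4, and that of Pax6 228 and 280 against 145 to 263.

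The 4 other lists of cortical genes are read against 3.13% of all regions and 22.7% of all genes, and their genes had more merged regions than the 13.8 of the average gene, from 38.9 per gene (Cajal-Retzius and hem) to 145 (axon guidance). Their shares of regions at any distance lay near or below that of the genome. Radial glia and Notch genes had 35 of 1009 regions (3.47%) at 9 of 17 genes, led by Sox9 (12) with Hes1, Jag1 and Ptn (4 each) and Dll1 (3). Of the 12 Sox9 regions, 5 were at least 2-fold higher in progenitor-like nuclei (20.1% of all CTX-only regions were) and 3 in glutamatergic neuron-like nuclei (27.8%). Axon guidance and adhesion genes had 110 of 3909 (2.81%) at 21 of 27 genes, led by Efnb2 (12), Epha4, Nrp2 and Unc5d (9 each) and Cdh8 (8). Glutamate signalling genes had 27 of 858 (3.15%) at 11 of 14 autosomal genes, led by the receptor genes Gria1 and Grik2 (5 each) and Grik1 and Grm7 (4 each), with Gria4 (2). Cajal-Retzius and cortical hem genes had 12 of 467 (2.57%) at 7 of 12 genes, with Ebf2 (3), Reln, Wnt2b and Wnt5a (2 each) and Ebf3 (1). In the hem gene Wnt3a an intronic region had 1521 and 493 counts. Promoters of these lists were seldom above all GE libraries in both CTX libraries, with 1 of 14 for glutamate signalling and 0 for the others. Below all of them were 5 of 10 (Cajal-Retzius and hem), 6 of 27 (axon guidance), 4 of 17 (radial glia) and 4 of 14 (glutamate signalling). Over all shared regions 8.02% were above and 22.3% below.

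Ventral and GABAergic genes had CTX-only regions at 4 of 19 autosomal genes (21.1%, against 22.7% of all genes) and 7 of 534 regions (1.31%, against 3.13%), namely Ebf1, Isl1 and Lhx8 (2 each) and Dlx6 (1). The same genes had 18 MGE-only regions (3.37% of their regions, against 0.608% over the genome). Of their 19 promoters, 17 had less CPM in both CTX libraries than in any GE library, against 22.3% of all shared regions and 4 of 13 housekeeping promoters. Some of the 17 lay in a merged region shared by neighbouring genes. The lowest share was that of housekeeping genes, where 1 of 13 autosomal genes (7.69%), Ywhaz, had 1 CTX-only region of 113 (0.885%).

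Shared regions next to CTX-only regions were compared last. Of the regions with a peak in all 8 libraries that lay nearest to a CTX-only region, at a median of 10225 bp, both CTX libraries exceeded all 6 GE libraries in CPM for 1134 of 8947 (12.7%), against 8.02% of all shared regions, and both were below all 6 for 1469 (16.4%), against 22.3%. A shared region next to several CTX-only regions was counted for each of them, with 7618 distinct shared regions in all. This is a description of the contrast that chose the regions, and no test was made.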

How the data were processed

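Nuclei of WT mouse CTX, MGE, LGE and CGE were profiled by droplet single-nucleus ATAC-seq. Per the submitters' processing notes and file headers the authors used Cell Ranger ATAC 1.2.0 with GRCm38 (mm10); the aligner, peak threshold and barcode filter are not given in the sources used here. Deposited values are raw counts per peak and nucleus, mostly even since both fragment ends are counted. Odd entries made up 9.54 to 10.4% in the replicate 1 libraries and 5.17 to 5.85% in the replicate 2 libraries. This split followed replicate number in every region, as does the comparison of the CTX libraries, and its cause was not tested. The deposited motif counts were not used.

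Peaks on chromosomes 1 to 19 were merged in Python 3.11.15 with pandas 2.3.3. Annotation used the 21951 protein-coding genes of GENCODE M21 (a promoter lies within 1000 bp of a start site), and sequence the GRCm38.p6 genome of RefSeq. Motifs were plain strings searched on both strands. CTX nuclei were clustered by latent semantic indexing (30 components, scikit-learn 1.9.0) and the Leiden method (resolution 0.5, leidenalg 0.10.2) on regions with a peak in all 8 libraries. No doublet caller was run, and as an alternative the 5% of nuclei with the most counts were left out. A cluster needed at least 3 raised markers and stayed unnamed where its leading genes went against the name. Class comparisons were planned for both CTX libraries, but replicate 2 held too few nuclei of either class in the clustering used, so replicate 1 alone was used, and comparisons with cluster 0 were added after seeing the data. No test was run, since the rule used the contrast and each CTX library stands alone. The interval and call code was tested on simulated data.

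The members, gene lists and strings were chosen with earlier results of these data known. Named were the 12 regions with the largest counts per nucleus that both CTX libraries reached, the 12 genes nearest to most regions, up to 5 genes per list, and the 6 regions most skewed to each class by the replicate 1 ratio among those with at least 100 counts in each CTX library. Of the latter, 1 region is not reported here.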

Additional observations from a re-analysis of the deposited data

How the results depend on the processing

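No paired analysis was possible because no result comes from a test. Of 94 alternative values, 62 stayed within the 95% binomial interval of the reported value (for the number of regions, within 1.5 times it) and 32 moved. A reversal of sign was looked for in the log2 ratio alone, which kept its sign in every setting. Leaving out CTX replicate 2 could not move the class shares, as these come from replicate 1 alone, and it is counted as unchanged. A minimum of 0.05 counts per nucleus in both CTX libraries left 477 regions, with a median width of 1175 bp and a median start-site distance of 72106 bp. Joining peaks up to 500 bp apart moved the median width to 647 bp. Leaving out each library in turn gave between 8976 and 51742 regions, median widths of 325 to 640 bp, promoter shares of 1.36 to 2.05% and median distances of 46453 to 56282 bp, the extremes mostly from leaving out a CTX library (32573 regions without replicate 1 and 51742 without replicate 2). Without each GE library the number stayed between 8976 and 11059, the median counts per nucleus between 0.0385 and 0.0416 in replicate 1 and 0.0137 and 0.0142 in replicate 2, and the log2 ratio between 0.55 and 0.67. Per covered kilobase the medians were 0.0737 and 0.0353 counts per nucleus and the log2 ratio 0.17, and relative to counts in shared regions the ratio was 0.79. The share higher in glutamatergic neuron-like nuclei (27.8%) was 30.6% at Leiden resolution 1.0, 30.1% without the 5% of nuclei with the most counts, 31.5% by mean counts per nucleus, 38.1% at 1.5-fold and 28.8% with replicate 1 clustered alone, an alternative chosen after seeing the data. The share higher in progenitor-like nuclei (20.1%) was 27.3%, 27.3%, 17.1%, 29.9% and 25.6% in the same order. The shares over all regions with both CTX peaks were not computed in these settings. Whether CTX-only regions stayed above that background thus cannot be read from these values. The planned call without CTX replicate 1 gave no value, as replicate 2 held 1 glutamatergic neuron-like and 2 progenitor-like nuclei in the clustering used (1 and 1226 at Leiden resolution 1.0, 2 and 3014 without the 5% of nuclei with the most counts). In 500 bp windows 49.6% of regions held the NFI core. A longer window raises the share in any set, so this value alone says nothing about the contrast with other regions. Within 100 kb of a start site 3.72% of regions of the T-box and cortical layer list were CTX-only, against 2.94% of all regions. The Cajal-Retzius and cortical hem list reached 3.89% at this distance. The cause of these shifts was not tested. Depth limits the weaker regions most: 2054 had fewer than 100 counts in both CTX libraries.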
